A study of Rattus norvegicus with 28 samples.

Results

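Plat and Kdr are a pair of genes that INS-1 cells, a rat insulinoma line used as a model of the pancreatic beta cell, transcribed more strongly after a rise in cAMP, with most of the increase coming hours after the signal. Plat encodes tissue plasminogen activator, and Kdr encodes the receptor VEGFR2. They were picked by symbol from the deposited expression table, where each had 1 transcript, so they are 2 of 17455 symbols. Both were named for their late response to cAMP signals, so their change against untreated cells is given as a description and without a p-value. The comparisons between genotypes and between agents were tested, with a limit on the genotype tests stated below.

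RNA-seq was performed in duplicate on 14 groups of INS-1 cells, 28 libraries in all. The cells were WT or Med14S983A, a CRISPR knock-in that replaces 1 serine of Med14 with alanine. Med14 is a backbone subunit of Mediator, the complex that connects transcription factors with RNA polymerase II. Cells of either genotype, in medium without serum, were untreated (CON) or exposed for 1, 8 or 16 h to 10 nM exendin-4 (Ex-4), a GLP-1 receptor agonist, or to forskolin (FSK, 10 µM), a direct activator of adenylyl cyclase. The methods describe a pair of separately derived Med14S983A lines, and the labels do not say which of them a library came from. From these labels an effect of the substitution and a difference between lines cannot be told apart. By Q-PCR the study had already reported that induction of Kdr by Ex-4 was blocked in mutant cells. It also followed Plat and Kdr in both genotypes with FSK. The genotype tests below are therefore not independent of how these genes came to be named.

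Tissue plasminogen activator is a secreted serine protease that cuts plasminogen into plasmin, the enzyme that dissolves fibrin. Inhibitors of the serpin family block it, and cell surface receptors bring it close to its substrate. VEGFR2 is a receptor tyrosine kinase that binds VEGF-A and is best known as the main signalling receptor of endothelial cells, including those of the islet capillaries. A cAMP rise activates PKA, which phosphorylates CREB at cAMP response elements (CREs). Immediate-early genes such as Fos respond within an hour and fall back, whereas delayed genes go on rising after that.

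The transcript of Plat, NM_013151, lies on the minus strand of chromosome 16 of rn6, from 74098268 to 74122858, with an exon length of 2476 bases. That of Kdr, NM_013062, lies on the plus strand of chromosome 14, from 34727677 to 34787126, with an exon length of 5816 bases. RefSeq promoter sequence was at hand for 1 of the 2 genes, Kdr, in build GRCr8. The 218 bases from 250 to 33 bases before the annotated start of the Kdr gene are shown because they are the proximal sequence of a strongly cAMP-responsive gene, chr14:32571813-32572030 on the plus strand, with no motif match to put in capitals.
Kdr: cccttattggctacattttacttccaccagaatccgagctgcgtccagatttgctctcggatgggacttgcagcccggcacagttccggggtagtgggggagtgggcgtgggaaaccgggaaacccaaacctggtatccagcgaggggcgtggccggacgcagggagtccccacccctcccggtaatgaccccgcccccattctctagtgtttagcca
Stretches of 30 bases around a short CRE (TGACG) in a pair of genes described further on are shown for contrast, with the short CRE in capitals. They are chr14:32198827-32198856 for Nmu and chr3:81845906-81845935 for Osbpl6, both on the plus strand of GRCr8.
Nmu: cagcaggtccgggTGACGccagggagccag
Osbpl6: tttattcaggtttCGTCAggaagctgagct
In the window from 250 bases before to 50 after the transcript start, Kdr had 0 matches on either strand to the full CRE TGACGTCA, the variant TGACATCA, the short CRE TGACG or the AP-1 site TGANTCA. The full CRE stood in 1.83% of 33469 rat promoters of that length, the variant in 4.34%, the short CRE, which the full CRE contains, in 21.2%, and the AP-1 site in 7.33%. Nmu had 1 short CRE and 1 AP-1 match, and Osbpl6 had 2 short CREs and 1 AP-1 match. Of other genes described further on for a like time course over all groups, Gtf2a2 had 1 short CRE and 1 AP-1 match. Msantd1 had 2 short CREs and 1 match to the variant. Of those alike over WT alone with a promoter sequence at hand, Ppp2ca had 1 full CRE and 3 short CREs. Slc30a5 and Tpm4 had 1 and 2 short CREs, and Olfm1, Arhgap26, Sf3b5 and Ryk had no match. Dhrs7, Nuak1, Gcnt3, Hspbp1, Rfk and Itga3, like Kdr, had no match to any of these motifs. These counts describe the letters of the window only.

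The libraries held 42551133 to 57231981 fragments, apart from 92635979 in replicate 2 of Med14S983A at 8 h of FSK. Levels are in TPM, which corrects for transcript length and library size. For libraries of Plat and Kdr below 1 TPM the number of fragments behind the value is given, as recovered from the TPM. Where a group lies near that floor, ratios carry a 95% interval from the fragment counts. This interval covers counting error only, since PCR copies are not independent molecules. Of 10 beta cell markers 9 were in the table, and their summed level was 50707 to 89188 TPM. Among 11 endothelial markers, chosen because Kdr marks that cell type, Robo4 was at 0 in all 28 libraries, and Cdh5, Pecam1, Tie1 and Cldn5 reached at most 0.112, 0.113, 0.04 and 0.015 TPM. Tek, Emcn, Vwf and Erg reached at most 0.062, 0.031, 0.376 and 0.312 TPM. The single endothelial marker above 1 TPM was Esam, at 29.3 to 67.9 TPM. The endothelial sum, nearly all of it Esam, was 60.1 to 68.3 TPM in WT CON and 30.5 to 33.1 TPM in WT after 8 h of FSK, where Kdr was highest. Eng rose in FSK, as Plat and Kdr did, from 0.0365 TPM in WT CON to 0.7145 and 0.8895 TPM at 8 and 16 h. In Med14S983A it rose from 0.0285 to 0.221 and 0.746 TPM. With Ex-4, Eng was at 0.2995 and 0.144 TPM at 8 and 16 h in WT, and at 0.023 and 0.0225 TPM in Med14S983A. At 8 h of either agent it was thus lower in Med14S983A, as both genes were. Unlike Kdr, Eng did not fall after 8 h of FSK, and unlike both genes it was close between genotypes in CON and at 16 h of FSK. Among markers of other cell types, the alpha cell gene Gcg also rose, from 167 TPM in WT CON to 838 TPM at 8 h of Ex-4 and 1285 TPM at 8 h of FSK. In Med14S983A Gcg was at 6.32 TPM in CON and 106 TPM at 8 h of FSK. The delta and PP cell genes Sst and Ppy reached at most 0.116 and 0.171 TPM. The stromal genes Pdgfrb and Col1a1 reached at most 0.588 and 0.069 TPM, and the immune genes Ptprc and Cd68 0.008 and 1.746 TPM. Pdgfrb was at 0.0065 TPM in WT CON and 0.2525 TPM in Med14S983A CON. Cd68 was at 0.7625 and 0.6155 TPM in those groups, and at 1.333 and 1.499 TPM at 16 h of FSK in WT and Med14S983A. The part of these markers in the results was not tested.

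In WT cells Plat was low at rest and rose in both treatments. The 2 CON libraries held 0.955 and 1.083 TPM, from 56 and 78 fragments. After 1 h the values were 2.063 and 2.14 TPM with Ex-4 and 2.173 and 1.727 TPM with FSK. All 4 libraries of the first hour were above both CON libraries, and the agents overlapped. At 8 h Plat reached 16.435 and 18.212 TPM with Ex-4 and 63.686 and 71.787 TPM with FSK. At 16 h it was down to 5.51 and 6.493 TPM with Ex-4, while with FSK it stood at 63.409 and 68.149 TPM. The FSK libraries of 8 and 16 h overlapped, and those of Ex-4 did not.

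As ratios of mean TPM to WT CON, Plat was 2.06-fold, 17-fold and 5.89-fold higher at 1, 8 and 16 h of Ex-4. With FSK the ratios were 1.91, 66.5 and 64.6. The gain over CON in the first hour was 6.64% of the 8 h gain with Ex-4 and 1.40% with FSK. Plat thus gained little in the first hour and most by 8 h, which is the pattern its name as a delayed gene states. On the log2(TPM + 1) scale of the limma fit, Plat ranked 5 of 10275 genes by increase at 8 h of FSK and 1 at 16 h. A gene was called where limma gave an adjusted p under 0.05 with more than a 1.5-fold change. No call against CON is given for Plat or Kdr, as both were chosen for that response. For reference, the share of all genes called higher in WT was 1.75%, 3.61% and 3.53% at 1, 8 and 16 h of Ex-4 and 2.53%, 8.77% and 10.3% at those of FSK.

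Kdr started lower and had a sharper peak. The WT CON libraries held 0.399 and 0.41 TPM, from 55 and 69 fragments. After 1 h Kdr stood at 1.94 and 2.283 TPM with Ex-4 and at 2.394 and 2.022 TPM with FSK. At 8 h it reached 6.191 and 6.64 TPM with Ex-4 and 26.805 and 28.432 TPM with FSK. No treated library up to 8 h overlapped CON. By 16 h the values had come back to 0.796 and 0.82 TPM with Ex-4 (143 and 154 fragments) and to 4.52 and 4.835 TPM with FSK, all still above CON.

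Kdr was 5.22-fold, 15.9-fold and 2.00-fold above WT CON at 1, 8 and 16 h of Ex-4, and 5.46-fold, 68.3-fold and 11.6-fold with FSK. The 16 h mean was 12.6% of the 8 h mean with Ex-4 and 16.9% with FSK, against 34.6% and 97.1% for Plat. Kdr thus fell from 8 to 16 h of FSK, and Plat kept its level in TPM. After scaling to the ERCC spike-ins, the study's own normalisation, Plat was higher at 16 h, with 56.6 and 64.9 ERCC-scaled TPM at 8 h and 71.96 and 82.4 at 16 h (ratio 1.27), which did not overlap. Kdr fell on that scale too (ratio 0.22). It also had an early part: with Ex-4 the first hour gave 28.4% of its 8 h gain, and with FSK 6.63%. Kdr therefore peaked late but had already risen at 1 h.

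A pair of reference genes places these time courses. Fos, an immediate-early AP-1 subunit, went in WT from 2.04 TPM to 46.1 TPM at 1 h of Ex-4 and 162 TPM at 1 h of FSK, and was at 6.93 and 27.7 TPM by 8 h. Osbpl6, an oxysterol-binding protein that the study also lists as delayed, was at 5.94 TPM in CON, 5.5 TPM at 1 h of FSK, 16.0 TPM at 8 h and 14.8 TPM at 16 h. Osbpl6 showed no first-hour increase, Kdr a marked one and Plat a small one.

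**Figure D1:**
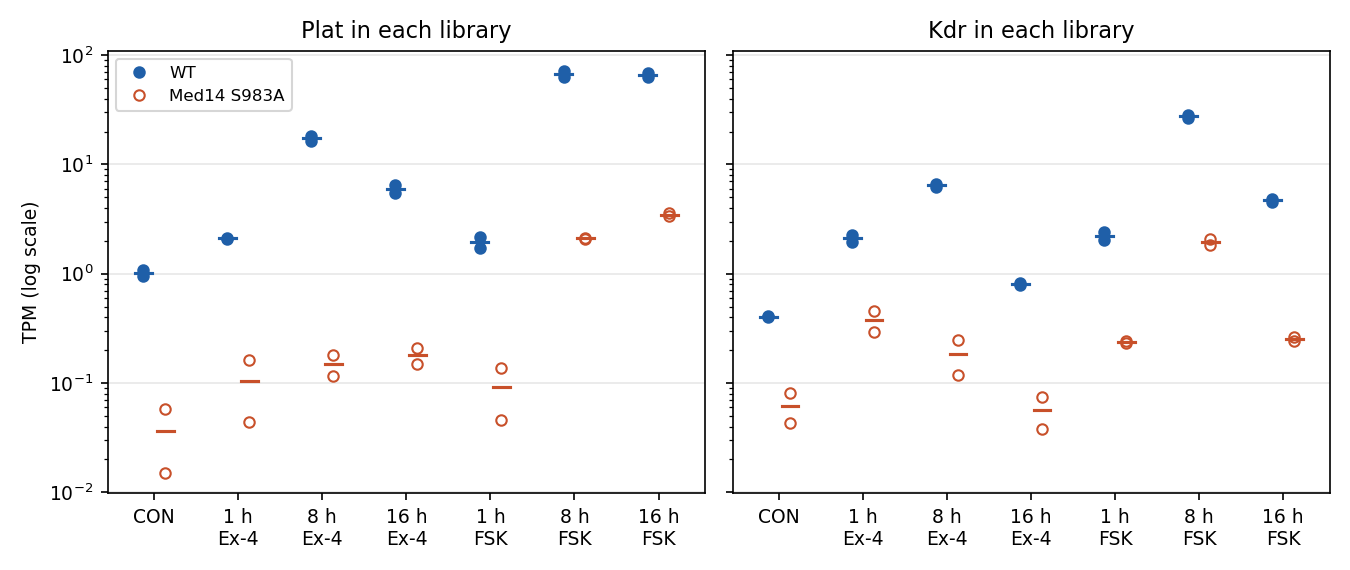
Plat (left) and Kdr (right) in each of 28 libraries, in TPM on a log axis, for 7 conditions along the horizontal axis. Points are single libraries, filled for WT and open for Med14S983A, and short bars are group means. WT Plat stays near 65.8 TPM at 16 h of FSK, whereas WT Kdr is back at 4.68 TPM, and every Med14S983A library lies below the WT libraries of the same condition.

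In Med14S983A cells the resting level of both genes was far lower. Plat had 0.058 and 0.015 TPM in CON, which is 4 fragments in one library and 1 in the other. Kdr had 0.081 and 0.043 TPM, from 13 and 7 fragments. Neither gene overlapped its WT values. The WT mean was 27.9-fold the Med14S983A mean for Plat (134 against 5 fragments, ratio 26.8, 95% counting interval 11.2 to 83.9). For Kdr it was 6.52-fold (124 against 20 fragments, ratio 6.20, interval 3.85 to 10.5).

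Genotype at CON was tested with limma, with the limits for a call given above. Of all genes tested, 19.4% were called in either direction and 11.1% were lower in Med14S983A. Plat was lower by this rule (log2 difference of TPM + 1 of -0.96 ± 0.09 (SE), adjusted p = 1.1e-09). Kdr had a difference of -0.40 ± 0.09 (adjusted p = 0.00026), which is under the fold limit. Adding 1 to values below 1 TPM compresses these differences. With edgeR on the recovered fragments the log2 differences were -4.66 for Plat and -2.60 for Kdr (adjusted p = 4.2e-10 and 2.0e-07), so both were past both limits. Some beta cell markers moved between the genotypes as well, in both directions. Ins2 was at 2938 TPM in WT CON and 35068 TPM in Med14S983A CON, and the glucose transporter Slc2a2 at 517 and 62.6 TPM. The others differed less: Ins1 (34108 and 40615 TPM), Iapp (6990 and 3270), Pdx1 (292 and 333), Nkx6-1 (52.2 and 34.6), Neurod1 (224 and 218), Chga (5925 and 4953) and Pcsk1 (99.8 and 163). The part of these markers in the differences of Plat and Kdr was not tested. In bulk libraries, fewer cells that express a gene and less RNA per cell cannot be told apart. The p-values measure the spread between these libraries, since the labels do not say that duplicates came from separate cultures.

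With Ex-4, Plat stayed below 0.3 TPM in every Med14S983A library. It was at 0.044 and 0.163 TPM at 1 h (3 and 13 fragments), 0.116 and 0.182 TPM at 8 h (9 and 15 fragments) and 0.211 and 0.149 TPM at 16 h (14 and 11 fragments). The 8 and 16 h libraries lay above both CON libraries, and those of 1 h overlapped CON. The ratios to CON were 2.84, 4.08 and 4.93, with counting intervals of 0.96 to 9.60, 1.55 to 13.9 and 1.82 to 16.2 for the fragment ratios. No fall from 8 to 16 h was seen, unlike in WT, but the fragment ratio of 1.17 between those times had an interval of 0.64 to 2.14.

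With FSK, Plat did rise in Med14S983A. After 1 h it held 0.137 and 0.046 TPM (10 and 3 fragments), at 8 h 2.143 and 2.057 TPM, and at 16 h 3.595 and 3.353 TPM. The 8 and 16 h libraries did not overlap. The 16 h mean was 1.65-fold the 8 h mean, beside 0.97-fold in WT, and with ERCC scaling these ratios were 2.04 and 1.27. The ratios to CON were 57.5 at 8 h and 95.2 at 16 h, with counting intervals of 23.7 to 172 and 40.3 to 292. These intervals contain the WT ratios of 66.5 and 64.6. The gain in TPM was nonetheless 3.09% of the WT gain at 8 h and 5.31% at 16 h, as it started from a mean of 0.0365 TPM. On the log2(TPM + 1) scale the differences from CON were 1.58 and 2.11. In Med14S983A 2.03%, 3.21% and 4.73% of genes were called higher at 1, 8 and 16 h of Ex-4, and 3.19%, 11.6% and 12.2% at those of FSK.

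Kdr in Med14S983A followed a different course in each agent. With Ex-4 it was highest at 1 h, at 0.295 and 0.455 TPM (55 and 85 fragments), with 0.119 and 0.246 TPM at 8 h (20 and 47 fragments) and 0.038 and 0.075 TPM at 16 h (6 and 13 fragments). The 1 and 8 h libraries did not overlap, and those of 16 h overlapped CON. The 8 h mean was 48.7% of the 1 h mean (fragment ratio 0.48, counting interval 0.35 to 0.65), whereas in WT it was 3.04-fold the 1 h mean. The first-hour ratio to CON was 6.05 (fragment ratio interval 3.75 to 10.1) beside 5.22 in WT, and the 8 h ratio was 2.94 (1.73 to 5.03) beside 15.9.

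With FSK, Kdr in Med14S983A had the WT shape at a lower level. It was at 0.243 and 0.232 TPM at 1 h (42 and 36 fragments), 1.831 and 2.086 TPM at 8 h, and 0.262 and 0.242 TPM at 16 h (47 and 44 fragments). All 6 libraries lay above CON, with the peak at 8 h. The ratios to CON were 3.83, 31.6 and 4.06, against 5.46, 68.3 and 11.6 in WT. The TPM gain was 9.73%, 6.97% and 4.45% of that in WT. Replicate 2 at 8 h of FSK, the deepest library, differed little from replicate 1 in either gene.

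**Figure D2:**
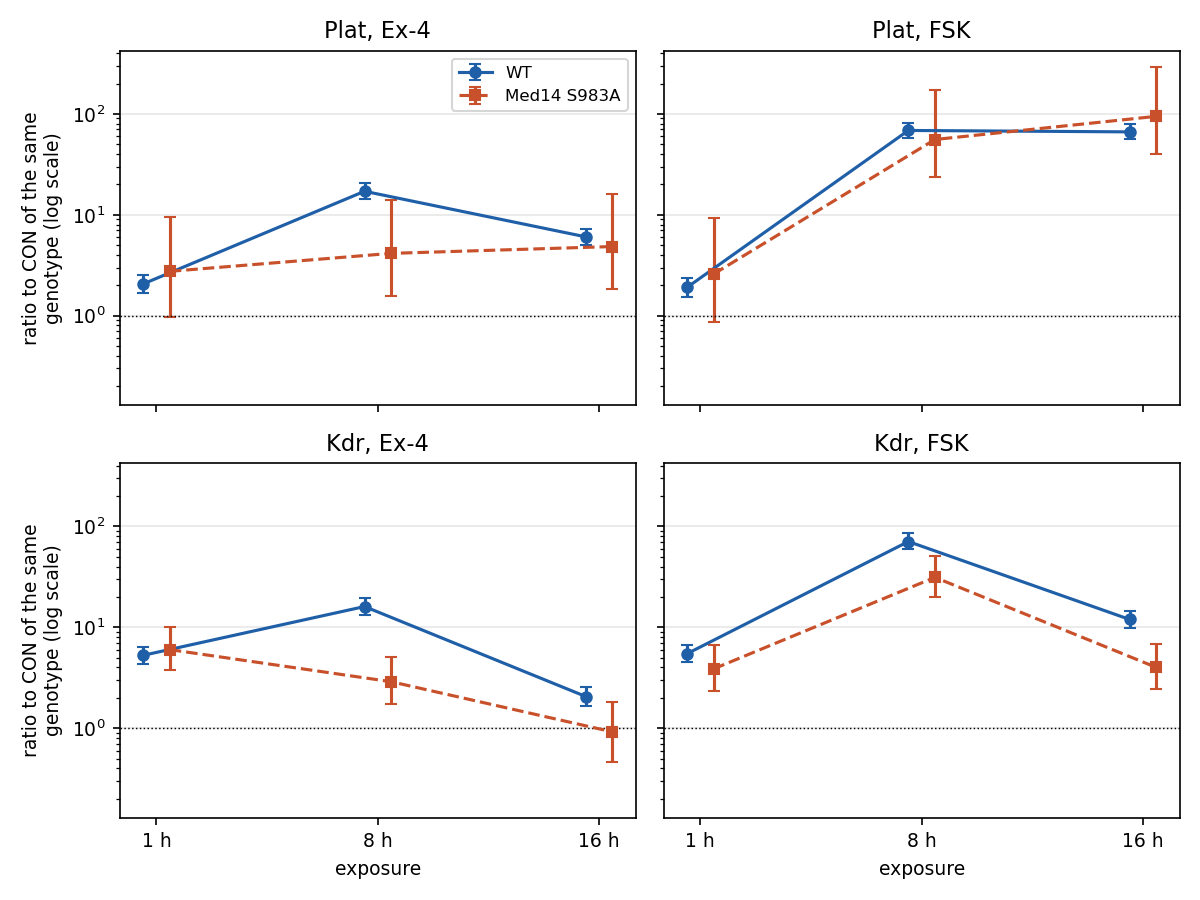
Ratio of each treated group to CON of the same genotype, from fragments scaled to library size, on a log axis, at 1, 8 and 16 h of Ex-4 or FSK, for Plat (top) and Kdr (bottom). Bars are 95% counting intervals and the dotted line marks no change. The Plat ratios of Med14S983A in FSK (55.7 and 94.5 at 8 and 16 h) lie within counting error of WT (68.5 and 66.3), while Kdr in Med14S983A lies below WT at 8 h of both agents.

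In order of mean level over the 14 groups, Plat ran from 67.7 TPM (WT, 8 h FSK) and 65.8 TPM (WT, 16 h FSK), which overlapped, to 17.3 and 6.0 TPM (WT, 8 and 16 h Ex-4), which did not. Med14S983A at 16 h of FSK came next with 3.47 TPM, above WT at 1 h of either agent. WT CON, at 1.02 TPM, was above every Med14S983A group except those of FSK at 8 and 16 h. For Kdr the order began with WT at 8 h of FSK (27.6 TPM), 8 h of Ex-4 (6.42 TPM) and 16 h of FSK (4.68 TPM), none of which overlapped. The best Med14S983A group, 8 h of FSK with 1.96 TPM, overlapped the 1 h groups of WT.

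The interaction, that is the response in Med14S983A minus that in WT, was tested for the 6 treatments. On log2(TPM + 1), limma called Plat lower at 8 h of Ex-4 (-3.03 ± 0.13 (SE), adjusted p = 4.7e-14), 16 h of Ex-4 (-1.60, 5.3e-10), 8 h of FSK (-3.51, 1.1e-16) and 16 h of FSK (-2.94, 2.3e-15). At 1 h the differences of -0.53 and -0.47 were under the fold limit. Kdr was called lower in 5 of 6 interactions: 1 h of Ex-4 (-0.77 ± 0.12, 0.00033), 8 h of Ex-4 (-2.25, 2.5e-12) and 1, 8 and 16 h of FSK (-0.97, -2.87 and -1.78). For 16 h of Ex-4 the value was -0.37. The share of all genes called lower in these contrasts was 0.331%, 0.798% and 1.81% for 1, 8 and 16 h of Ex-4 and 0.769%, 6.21% and 6.40% for FSK. At 8 h of Ex-4 Plat had the lowest value of all 10275 genes and Kdr the third lowest. Each interaction contains the WT response for which both genes were chosen. For Plat at 8 h of Ex-4 that response was 3.18 in WT, beside 0.15 in Med14S983A. The p-values and ranks are therefore not independent of the choice of these genes.

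The same interactions on a ratio scale gave another answer. With edgeR, none of the 6 Plat interactions was called. The value at 8 h of FSK was -0.31 (adjusted p = 0.82) and at 16 h of FSK 0.41 (0.62), and at 16 h of Ex-4 it was -0.41 (0.78). At 8 h of Ex-4 it was -2.11 (0.17). For Kdr, edgeR called 8 h of Ex-4 (-2.50, 0.0018), 8 h of FSK (-1.16, 0.045) and 16 h of FSK (-1.62, 0.0092). It called neither 1 h treatment (0.17 and -0.50) nor 16 h of Ex-4 (-1.20, 0.12). Both scales therefore called a smaller Kdr response in Med14S983A at 8 h of both agents and at 16 h of FSK. For Plat, DESeq2 with its own size factors also called 8 h of Ex-4 (-2.07, adjusted p = 0.031), and DESeq2 with ERCC size factors did not (-2.16, 0.088). The other Plat interactions called by limma were called by none of these count fits. The ratio for Plat in Med14S983A has a denominator of 5 fragments.

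**Figure D3:**
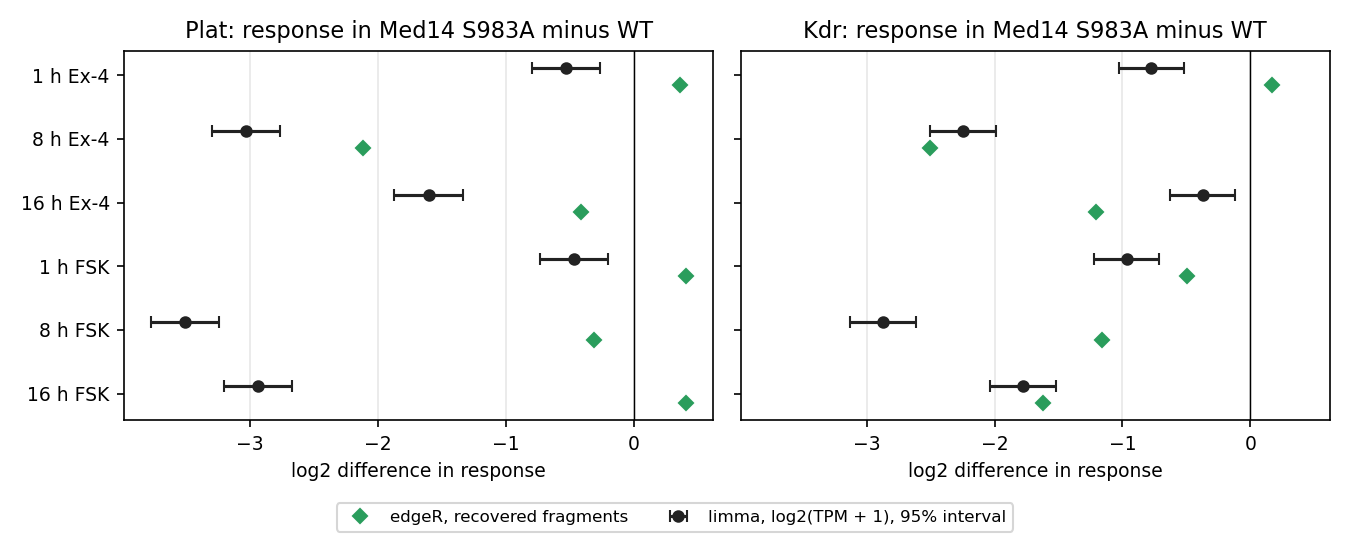
Response in Med14S983A minus response in WT, as a log2 difference, for the 6 treatments in Plat (left) and Kdr (right). Circles with bars are limma on log2(TPM + 1) with 95% intervals, and diamonds are edgeR on recovered fragments, drawn without an interval. For Plat in FSK the 2 scales are far apart (-3.51 and -0.31 at 8 h), and for Kdr at 8 h of Ex-4 they are close (-2.25 and -2.50).

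Levels after treatment differed between genotypes for both genes in all 6 treatments. In the direct comparison at the same treatment and time, limma called Plat and Kdr lower in Med14S983A in 12 of 12 tests, with edgeR folds of 19.04 to 109.6 for Plat and 5.39 to 34.4 for Kdr. Among all genes 19.7% and 20.1% were called in either direction at 1 h of Ex-4 and of FSK. The share called lower was 9.16% and 10.2% at 8 and 16 h of Ex-4 and 11.9% and 11.7% at those of FSK. By limma the log2 difference was largest for Plat at 8 h of FSK (-4.47, adjusted p = 3.7e-23), and for Kdr likewise (-3.27, 9.0e-21). Both genes passed the filter, a mean of 1 TPM over all 28 libraries, largely through their WT levels. Genes let in this way are more likely to be lower in Med14S983A, so the genotype tests are not independent of the filter. Without the filter the calls did not change. The filter cannot move these log2 differences, so this does not remove that dependence.

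Ex-4 and FSK were then compared at the same hour. At 1 h in WT the difference, Ex-4 minus FSK, was 0.08 (95% interval -0.11 to 0.27) for Plat and -0.04 (-0.22 to 0.14) for Kdr in log2(TPM + 1), both not called in a contrast where 1.14% of genes were lower with Ex-4. At 8 h Ex-4 gave less of both, by -1.91 for Plat and -1.95 for Kdr (adjusted p = 1.6e-15 and 4.5e-16, 4.77% of genes lower). At 16 h the gap was -3.26 for Plat and -1.65 for Kdr (7.0e-20 and 1.5e-14, 7.29% lower). The FSK to Ex-4 ratio of mean TPM was 3.91 and 10.96 for Plat at 8 and 16 h, and 4.30 and 5.79 for Kdr.

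The agents parted in the same order in Med14S983A. At 1 h Plat differed by 0.01 (interval -0.17 to 0.20) and Kdr by 0.15 (-0.03 to 0.33), where 1.58% of genes were lower. At 8 h the differences were -1.43 and -1.32 (adjusted p = 2.7e-13 and 5.0e-13, 6.72% lower). At 16 h Plat was again lower with Ex-4 (-1.92, 2.1e-15, 5.76% lower), and Kdr had -0.25, under the fold limit, with an edgeR value of -2.15 (1.8e-05).

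**Figure D4:**
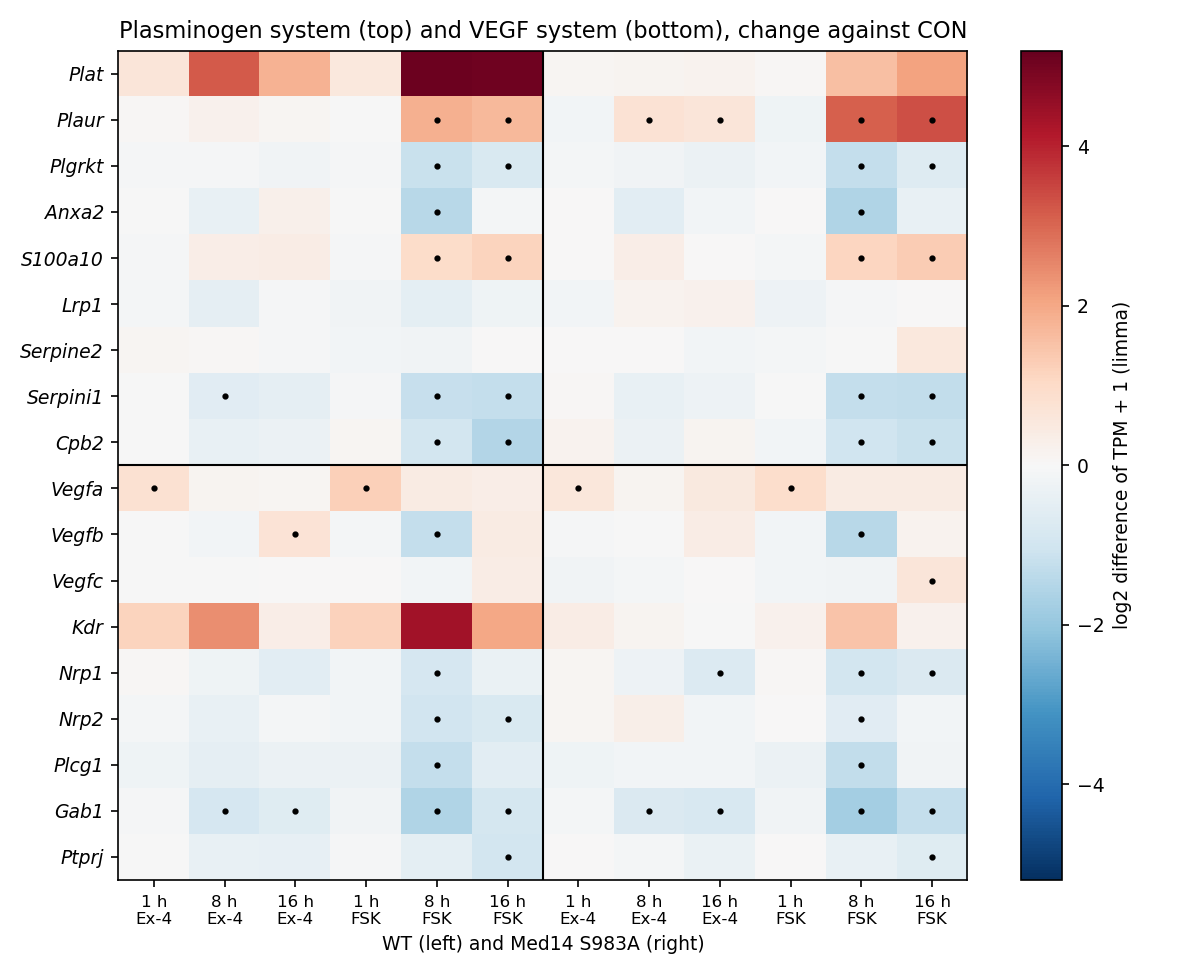
Change against CON of the same genotype for the tested genes of the plasminogen system (above the line) and of the VEGF system (below it), in WT (left) and Med14S983A (right), as the log2 difference of TPM + 1. Red is higher and blue lower than CON, and a dot marks a limma call in the genes other than Plat and Kdr. Plat and Plaur stand out in the upper block, at 5.09 and 1.83 in WT and 1.58 and 3.09 in Med14S983A at 8 h of FSK, and Kdr is the only receptor row in the lower block that is red there.

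The plasminogen system around Plat was mixed. Of 13 other genes listed, 8 had a mean of at least 1 TPM. The other activator, Plau, reached at most 0.028 TPM, and the zymogen Plg 0.106 to 0.748 TPM. The inhibitors Serpinb2, Serpina5 and Serpinf2 were at most at 0.017, 0.007 and 0.719 TPM. Plat was therefore the activator that WT cells transcribed. In Med14S983A it was at 0.0365 TPM in CON (5 fragments) and passed 1 TPM only at 8 and 16 h of FSK.

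Of the 8 tested genes, 2 were higher and 4 lower in WT at 8 h of FSK, where 43.6% of all genes were called. The higher ones were Plaur (1.83), the receptor of urokinase, and S100a10 (0.97), which with Anxa2 forms a docking site for plasminogen and its activator. Those lower were Anxa2 itself (-1.44), the plasminogen receptor Plgrkt (-1.15), the carboxypeptidase Cpb2 (-0.97), which removes plasminogen-binding lysines from fibrin, and Serpini1 (-1.19), neuroserpin, which inhibits tissue plasminogen activator. The list's median was -0.75 against -0.34 over all genes. After 8 h of Ex-4 in WT only Serpini1 of these 8 was called (-0.61, 9.60% of genes called), at 24.1 and 24.4 TPM against 36.8 and 38.2 TPM in CON.

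Genotype split this list at CON, with 1 gene higher and 3 lower of 8 in Med14S983A, where 19.4% of all genes were called and 11.1% were lower. Serpine2, protease nexin 1, fell by 1.74 on the log2 scale, from 4.33 to 0.605 TPM, and Cpb2 and S100a10 fell by 1.27 and 0.76. Plaur went the other way from Plat, at 0.0145 TPM in WT and 0.615 TPM in Med14S983A (0.67). At 8 h of FSK mean Plaur was 2.63 TPM in WT and 12.8 TPM in Med14S983A, and its interaction was called higher (1.26 at 8 h and 1.68 at 16 h) where that of Plat was called lower.

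The VEGF system held ligand before receptor. Vegfa was abundant in every library, at 222 to 553 TPM, and rose at 1 h: 0.78 with Ex-4 and 1.25 with FSK in WT, 0.60 and 0.93 in Med14S983A. At 8 h of FSK in WT its mean was 301 TPM against 223 TPM in CON. In WT the ligand was highest at 1 h of either agent and its receptor at 8 h. In Med14S983A this order was seen with FSK, whereas with Ex-4 both were highest at 1 h. The other VEGF receptors were near 0, with Flt1 at most at 0.034 TPM and Flt4 at 0.086 TPM.

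Of the 16 other listed genes, 8 were tested, and none was called between genotypes at CON, where the median was 0.22. In WT at 8 h of FSK, 5 of the 8 were lower and none higher, with a median of -0.94 against -0.34 over all genes. These were the ligand Vegfb (-1.25), the co-receptors Nrp1 (-0.89) and Nrp2 (-0.9997), the phospholipase Plcg1 (-1.23) and the adaptor Gab1 (-1.56), both of which act downstream of VEGFR2. In Med14S983A the same 5 genes were called lower at 8 h of FSK, where 46.1% of genes were called. The interaction was called for none of the 8 at 8 h of FSK and for Nrp2 alone (0.69) at 8 h of Ex-4, with 13.9% and 2.77% of all genes called in either direction.

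The genes with a time course most like that of Plat, by Pearson r of log2(TPM + 1) over the 14 group means, were Osbpl6 (r = 0.97), Dhrs7, Nuak1, Gtf2a2 and Gcnt3 (0.96 each). Kdr came 88th, with r = 0.87. Those most like Kdr were Hspbp1 (0.97), Msantd1 (0.96), Rfk (0.95), Nmu and Itga3 (0.93 each), with Plat 37th. Over the 7 WT groups alone, Plat was closest to RGD1311946, Olfm1, Slc30a5, Atp1b1 and Arhgap26, and Kdr to Sf3b5, Ppp2ca, Rfk, Tpm4 and Ryk. The lists over WT shared 1 gene, Rfk, with those over all groups. These points share libraries and differ in genotype, so r is a description.

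Nmu, the neuropeptide neuromedin U, stood out on this list because its start lies 373174 bp from that of Kdr. In WT it was at 0.123 and 0.452 TPM in CON, 8.164 and 8.682 TPM at 8 h of Ex-4, 58.557 and 60.938 TPM at 8 h of FSK and 19.795 and 20.684 TPM at 16 h of FSK. No treated value among these overlapped CON. In Med14S983A it did not exceed 0.109 TPM in any library and was at 0 in both at 16 h of FSK. The difference from CON at 8 h of FSK was 5.57 in WT and 0.07 in Med14S983A on the log2(TPM + 1) scale. As Nmu was chosen for its likeness to Kdr over these libraries, the values are a description.

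Other neighbours were listed by distance. Within 1 Mb of the Kdr start, 8 of 10 other genes were tested. None was called by genotype at CON, and Nmu and Tmem165 (5.57 and 0.86) were higher at 8 h of FSK in WT, that is 2 of 8 where 8.77% of all genes were called higher. Within 1 Mb of the Plat start, 17 of 29 were tested, of which 5 were called at 8 h of FSK in WT, all lower, where 43.6% of all genes were called in either direction. At CON, 3 of these 17 were called, each lower in Med14S983A as Plat was (11.1% of all genes lower): the phosphate transporter Slc20a2 (-0.71), the cytoskeletal protein Ank1 (-2.08) and the zinc finger protein Zmat4 (-2.25). Ank1 and Zmat4 fell by more than Plat on this scale (-0.96), which compresses low values. From WT to Med14S983A, mean TPM went from 3.43 to 0.041 for Ank1, 9.97 to 1.31 for Zmat4 and 1.02 to 0.0365 for Plat. As a ratio of these means, the fall of Plat was larger than that of Zmat4 and smaller than that of Ank1. The Plat ratio rests on 5 fragments (counting interval 11.2 to 83.9), and none was computed for Ank1, so their order is not settled. Of the neighbours of Plat not tested, Atp7b went at CON from 1.065 TPM in WT to 0.0475 TPM in Med14S983A, and Thsd1 from 0.1395 to 0.0165 TPM. The rest were at most at 0.012 TPM at CON. The medians of the tested neighbours at CON were -0.38 around Plat and -0.12 around Kdr, against -0.07 over all genes.

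Osbpl6 came first in likeness to Plat over the 14 groups, and was not among the 5 closest over WT alone. At CON it was at 5.94 TPM in WT and 4.30 TPM in Med14S983A, a log2 difference of -0.39, not called. Kdr, at 0.405 and 0.062 TPM, had nearly the same value on that scale (-0.40). In Med14S983A Osbpl6 went to 5.08 TPM at 8 h and 5.35 TPM at 16 h of FSK. The response in Med14S983A minus that in WT was -1.10 and -0.92, given as a description because Osbpl6 is listed for this time course. The TPM gain was 7.70% and 11.9% of that in WT, beside 3.09% and 5.31% for Plat and 6.97% and 4.45% for Kdr.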

How the data were processed

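Bulk RNA-seq libraries of WT and Med14S983A INS-1 cells were analysed, 2 for each of 14 groups, with groups and replicate numbers from the sample titles. Per the labels and the study's methods, 1 µg of total RNA with ERCC spike-ins entered stranded libraries. The authors aligned reads to rn6 with STAR 2.5.3a and made the deposited TPM table with HOMER 4.11.1. Whether strand was used in the quantification is not given in the sources used here. The deposited count table holds the 92 ERCC sequences alone, as the authors counted them. The study's own tool, DESeq2 1.24.0 with ERCC size factors, needs gene counts.

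For each symbol the transcript with the highest mean TPM was kept (17455 symbols). TPM multiplied by length, and scaled to match the ERCC counts, gave back the fragments. Of 124685 values, 100% came out as whole reads (tolerance 0.05 reads after rounding), where chance would give 22.6%. The 10275 genes that averaged 1 TPM or more were fitted as log2(TPM + 1) with limma 3.58.1 in R 4.3.3, with 1 mean per group over all 28 libraries and eBayes with trend. Fold changes on this scale understate those of low genes. Tests were two-sided with Benjamini-Hochberg adjustment over all genes of a contrast, and a call needed an adjusted p under 0.05 and a fold above 1.5. In simulated data for WT at 8 h of FSK, limma recovered 98% of 100 genes changed 2-fold and 100% of 100 changed 3-fold, with 2 wrong calls.

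The fits were repeated without the filter, with a minimum of 5 TPM, with a pseudocount of 0.1, on median-centred or ERCC-scaled values, on the libraries of a contrast alone, with a replicate block and without each library in turn. Recovered fragments were tested by edgeR 4.0.16 and DESeq2 1.42.0. The members, gene lists and alternatives were chosen with earlier results of these data known. Named genes are the members, Osbpl6 and Fos for timing, the listed genes that were tested, the 5 most alike in time course, and neighbours within 1 Mb called at CON. Tmem165, the neighbours called at 8 h of FSK, Atp7b and Thsd1 were added after their values were seen. One gene of the plasminogen list is not reported here and was left out of the counts.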

Additional observations from a re-analysis of the deposited data

Results flagged for a closer look

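A different response in the 2 genotypes, by a test of the difference itself, marked 9 results for a closer look. They are the limma interactions (Med14S983A response minus WT response, log2 of TPM + 1). For Plat these were -3.03 at 8 h of Ex-4, -1.60 at 16 h of Ex-4, -3.51 at 8 h of FSK and -2.94 at 16 h of FSK. For Kdr these were -0.77 at 1 h of Ex-4, -2.25 at 8 h of Ex-4, -0.97 at 1 h of FSK, -2.87 at 8 h of FSK and -1.78 at 16 h of FSK. Of the 9, edgeR on recovered fragments called 3, all in Kdr. The 6 interactions share the CON libraries of their genotype. Each also contains the WT response for which the genes were chosen, so these results are not independent of that choice. Groups of 2 libraries are too small to test a single library against the rest of its group.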

How the results depend on the processing

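Levels under 1 TPM limit these results: in Med14S983A CON Plat rests on 5 fragments and Kdr on 20. Of 62 results, none changed its direction or call with ERCC scaling. None changed its call without the filter, with the libraries of the contrast alone or with the replicate number as a block. A filter, the choice of libraries or the block cannot move a log2 difference here, so in those fits only the call could change. The block leaves each value as it was, such as 0.62 for Plat at 1 h of Ex-4 in WT, because every group holds both replicate numbers. Replicate numbers did not pair the libraries (correlations of deviations -0.28 to 0.28, 17 of 91 over 0.1, and 16 of 28 libraries correlated best with one of their own number). At a mean of at least 5 TPM Kdr could not be fitted, and the 31 results of Plat kept their calls. Each gene has 1 transcript, so summing transcripts gives no other value. In fragments scaled to library size, 1 of 24 ratios to CON moved by more than 1 SD (Kdr in WT at 16 h of Ex-4, 2.06). The causes of the changes below were not tested. For changes against CON, called here says only on which side of the limits a value lay, as both genes were chosen for that response.

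Changes under a pseudocount of 0.1, edgeR, DESeq2 and DESeq2 with ERCC size factors are given in that order. Kdr by genotype at CON became called at -1.65, -2.60, -2.63 and -2.50. In Med14S983A, Kdr became called at 1 h of Ex-4 (1.54, 2.63, 2.67 and 2.59), 8 h of Ex-4 (0.77, 1.56, 1.59 and 1.57), 1 h of FSK (1.07, 2.07, 2.12 and 1.74), 16 h of FSK (1.13, 2.08, 2.14 and 2.26) and for Ex-4 against FSK at 16 h (-1.18, -2.15, -2.18 and -2.47). So did Kdr in WT at 16 h of Ex-4 (0.85, 1.14, 1.17 and 1.33), Plat in Med14S983A at 8 h (0.87, 2.04, 2.11 and 2.09) and 16 h of Ex-4 (1.05, 2.28, 2.35 and 2.18), and Plat in WT at 1 h of FSK (0.87, 1.04, 1.05 and 0.97, and 0.68 with median centring). Kdr for Ex-4 against FSK at 1 h in Med14S983A was called by DESeq2 with ERCC factors alone (0.85).

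Among interactions, Kdr at 16 h of Ex-4 became called with a pseudocount of 0.1 (-0.90) and both DESeq2 fits (-1.22 and -1.54). Kdr at 1 h of Ex-4 lost its call with a pseudocount of 0.1 (-0.59) and turned positive with edgeR and both DESeq2 fits (0.17, 0.20 and 0.20). In these last 3 fits, Kdr at 1 h of FSK lost its call (-0.50, -0.46 and -0.75), as did Plat at 16 h of Ex-4 (-0.41, -0.37 and -0.70) and 8 h of FSK (-0.31, -0.24 and -0.31). Plat turned positive at 16 h of FSK (0.41, 0.48 and 0.44), 1 h of Ex-4 (0.36, 0.43 and 0.42) and 1 h of FSK (0.41, 0.48 and 0.18). Plat at 8 h of Ex-4 lost its call with edgeR (-2.11) and DESeq2 with ERCC factors (-2.16). Median centring turned Kdr in Med14S983A at 16 h of Ex-4 (0.051) and Plat for Ex-4 against FSK at 1 h in Med14S983A (-0.085).

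Leaving out 1 library gave Plat in WT 0.57 to 0.67 at 1 h of Ex-4 (not called without WT CON replicate 1) and 0.43 to 0.65 at 1 h of FSK (called without WT CON replicate 2, 0.59, or FSK replicate 2). The Plat interaction at 1 h of Ex-4 ran from -0.61 to -0.45 (called without Med14S983A 1 h Ex-4 replicate 2). Sign changes came in uncalled values near 0: Kdr in Med14S983A at 16 h of Ex-4 (-0.033 to 0.018), Ex-4 against FSK at 1 h for Kdr in WT (-0.13 to 0.040, and 0.036 in the other fit that turned), and for Plat in WT (-0.033 to 0.19) and Med14S983A (-0.063 to 0.093, and -0.045 without FSK replicate 2).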
